A study of Mus musculus with 4 samples.

Results

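Neutrophils are built around granules, and the genes described here encode the cargo of those granules and 2 abundant proteins of the neutrophil cytosol. They are 10 of the 19564 gene symbols in the deposited tables, named as a list: Mpo, Prtn3, Ela2 and Ctsg for the primary granules, and S100a8, S100a9, Ltf, Camp, Ngp and Fcnb for products of later stages. All 10 symbols were found, and all 10 passed the filter of at least 1 RPKM (reads scaled to gene length and library size) in at least 1 library. The members were chosen by name with their high R2 level and their R5 to R2 ratio in these same libraries already known, so every value below is a description and none is tested.

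Granules form in sequence while a neutrophil precursor matures. Primary (azurophil) granules are filled at the promyelocyte stage with myeloperoxidase and serine proteases, specific granules follow at the myelocyte stage with lactoferrin and cathelicidin, and S100A8 and S100A9 accumulate in the cytosol of maturing cells. The fetal liver of the mouse is a site of blood formation in which red cell precursors predominate and granulocyte precursors are also made.

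The cells came from fetal livers at stage E14.5 and were sorted by 2 surface markers: TER119, an erythroid antigen, and CD71, the transferrin receptor, which is not restricted to red cells. R2 holds proerythroblasts and early basophilic erythroblasts, R3 early and late basophilic erythroblasts, R4 mainly polychromatophilic and orthochromatic erythroblasts, and R5 late orthochromatic erythroblasts with reticulocytes. RNA was extracted directly after sorting, with no culture step, enriched for polyadenylated transcripts, and made into 1 library per population. The labels give no strain, sex, number of embryos or pooling for any of the 4 populations, and no agent or altered allele. In bulk RNA of this kind, fewer cells of a type and less RNA per cell cannot be told apart, and RNA of erythroblasts and RNA of other cells inside the same sort gate cannot be told apart either.

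The bases ahead of the transcription start are shown for the 4 primary granule genes, which had the largest R3 differences among the members, and for the adjacent pair S100a8 and S100a9. Each run is the 250 bases before the start given by RefSeq, in build GRCm38.p6, read 5′ to 3′ on the strand of the gene. Capitals mark GAGGAA, a core of sites for the myeloid factor PU.1, or its complement TTCCTC.
Mpo, chr11:87793534-87793783, plus strand: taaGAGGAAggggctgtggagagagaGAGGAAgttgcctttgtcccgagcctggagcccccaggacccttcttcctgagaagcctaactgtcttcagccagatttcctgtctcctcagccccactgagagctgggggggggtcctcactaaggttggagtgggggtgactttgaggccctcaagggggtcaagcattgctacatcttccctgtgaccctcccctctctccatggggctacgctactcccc
Prtn3, chr10:79879417-79879666, plus strand: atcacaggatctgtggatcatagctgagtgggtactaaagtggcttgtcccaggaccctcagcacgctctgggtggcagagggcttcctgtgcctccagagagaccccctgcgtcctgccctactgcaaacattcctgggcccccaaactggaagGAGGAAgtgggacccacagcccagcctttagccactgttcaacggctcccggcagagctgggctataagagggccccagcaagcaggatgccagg
Ela2 (Elane), chr10:79886062-79886311, plus strand: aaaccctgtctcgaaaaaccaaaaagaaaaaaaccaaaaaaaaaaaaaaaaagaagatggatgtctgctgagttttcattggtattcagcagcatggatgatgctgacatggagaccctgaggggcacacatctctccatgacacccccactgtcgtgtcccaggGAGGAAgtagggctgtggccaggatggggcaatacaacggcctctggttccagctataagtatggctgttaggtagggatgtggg
Ctsg, chr14:56102575-56102824, minus strand: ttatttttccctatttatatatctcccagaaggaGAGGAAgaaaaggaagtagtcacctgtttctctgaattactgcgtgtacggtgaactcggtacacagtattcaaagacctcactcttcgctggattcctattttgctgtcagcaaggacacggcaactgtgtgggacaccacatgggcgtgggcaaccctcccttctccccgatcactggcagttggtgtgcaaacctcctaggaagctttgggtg
S100a8, chr3:90668821-90669070, plus strand: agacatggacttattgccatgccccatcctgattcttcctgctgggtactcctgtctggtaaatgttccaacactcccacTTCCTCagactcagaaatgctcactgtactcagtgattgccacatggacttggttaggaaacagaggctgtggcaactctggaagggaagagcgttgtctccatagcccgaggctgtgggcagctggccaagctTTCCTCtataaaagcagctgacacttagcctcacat
S100a9, chr3:90695722-90695971, minus strand: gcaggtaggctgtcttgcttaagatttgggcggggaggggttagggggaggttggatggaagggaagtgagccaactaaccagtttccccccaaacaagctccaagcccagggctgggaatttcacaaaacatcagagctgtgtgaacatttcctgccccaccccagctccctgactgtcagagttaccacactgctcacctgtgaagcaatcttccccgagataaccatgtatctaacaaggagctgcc

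GAGGAA on either strand was present in 4 of the 4 primary granule genes and in 2 of the 6 later genes, S100a8 and Ltf. It occurred in 23.3% of the 32851 RefSeq promoter windows of the same length. In Prtn3 the match began 95 bases before the start and in Ela2 85 bases before it, while in Ctsg it began at 216 bases and in Mpo there was a match at 224 and another at 247 bases. TTNNGNAA, a loose form of the site for C/EBP factors, was present in 0 of the 4 primary genes and in 5 of the 6 later genes, all but Camp, against 36.8% of all windows. AGATAA, a core of GATA factor sites, was present in 0 of the 4 and in 2 of the 6, S100a9 and Ltf, against 9.99% of all windows. Matches to GAGGAA and TTNNGNAA can overlap, and a match of letters is not a measured binding site.

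The values were deposited as RPKM, and 6 genes with few countable bases, whose values are whole multiples of 1 unit in all but 1 of 24 cases, gave an estimate of 20700000 to 27400000 reads per library. This takes the shortest countable length to be 1 base, which no source states, and all estimated reads and counting intervals scale with it. The exception is Rps13 in R3. Values of 0 count as whole multiples, and the unit came from the lowest value above 0 in each library. Part of this result was therefore fixed in advance. In R4 only Gapdh and Sumo2 were above 0, each at 36.47 RPKM. With exonic lengths from the GRCm38 annotation, the member with the fewest estimated reads was Fcnb in R4, with 99, and the one with the most was Mpo in R2, with 131049. Intervals given as counting intervals rest on these estimates and cover counting error only, since each population has 1 library. Globin transcripts take up most of the later libraries, which lowers every other RPKM. Across genes, the median log2 ratio of the 9942 genes past the filter was -1.09 for R3 against R2, and it was -0.37 when libraries were scaled by the median of gene ratios. Of the erythroid marker genes, the alpha globin gene Hba-a1 was at 9072 RPKM in R2 and the erythropoietin receptor gene Epor at 144.

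Of the primary granule genes, Mpo, Prtn3 and Ela2 were among the most abundant transcripts of R2, with Prtn3 at rank 45, Ela2 at 67 and Ctsg at 349. The later genes S100a9, at rank 43, and S100a8, at 55, were in the same range. Mpo, the gene of the hydrogen peroxide consuming enzyme myeloperoxidase, was at 1966 RPKM (R2), 95.2 (R3), 59.1 (R4) and 146 (R5), and held rank 17 of 19564 symbols in R2. Prtn3, which encodes proteinase 3, was at 968 RPKM (R2), 57.9 (R3), 31.1 (R4) and 75.9 (R5). Ela2, now called Elane, encodes neutrophil elastase and was at 640 RPKM (R2), 30.3 (R3), 23.3 (R4) and 44.8 (R5). Each of these genes had its highest level in R2 and its lowest in R4, and R5 was higher than R3. Ctsg, which encodes the serine protease cathepsin G, showed the same order at a lower level, with 164 RPKM (R2), 7.20 (R3), 5.98 (R4) and 12.7 (R5).

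The later genes covered a wide range of levels. S100a8 and S100a9 encode the subunits of calprotectin, a calcium and zinc binding complex. S100a8 was at 851 RPKM (R2), 78.5 (R3), 33.4 (R4) and 62.5 (R5). S100a9 was at 1026 RPKM (R2), 98.9 (R3), 53.9 (R4) and 83.0 (R5). Both had their peak in R2 and their minimum in R4, but unlike the primary granule genes they were lower in R5 than in R3.

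Among the specific granule genes, Camp, which encodes the antimicrobial peptide precursor cathelicidin, was at 225 RPKM (R2), 25.2 (R3), 11.7 (R4) and 18.8 (R5). Ngp, a relative of cathelicidin, was at 131 RPKM (R2), 17.9 (R3), 9.71 (R4) and 14.6 (R5). Ltf, which encodes the iron-binding protein lactoferrin, was at 53.0 RPKM (R2), 7.47 (R3), 3.55 (R4) and 4.77 (R5), the lowest R2 level of the 10. These 3 genes repeated the order of S100a8, with R5 between R4 and R3. Fcnb, which encodes ficolin B, a lectin of innate defence, was at 102 RPKM (R2), 7.72 (R3), 2.75 (R4) and 6.62 (R5). Its R4 value was the lowest of any member in any library.

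**Figure D1:**
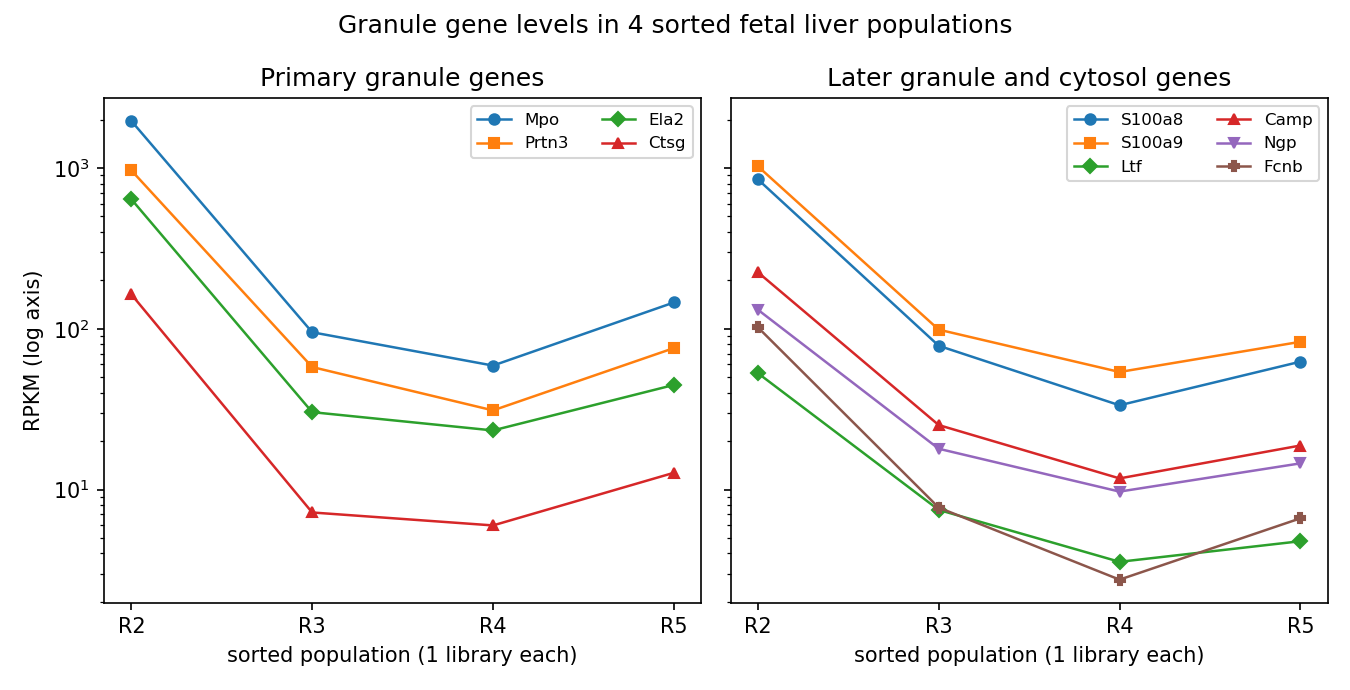
RPKM (log axis) of each member in the 4 sorted populations, with the 4 primary granule genes on the left and the 6 later genes on the right; each point is 1 library. All 10 lines are highest at R2 and lowest at R4, and Mpo goes from 1966 RPKM in R2 to 59.1 in R4.

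R3 against R2 is the step between neighbouring stages with the largest member differences. All 10 members were at least 2-fold lower in R3, on the scale of log2(RPKM + 1), beside 55.1% of all genes past the filter. With median scaling all 10 were again at least 2-fold lower, beside 18.0% of genes, and with globin genes removed the count was 10 beside 22.8%. The highest member ratio, that of Ltf, stood at percentile 3.30 of all genes, and 329 of 9942 genes were at or below it, the members included. The high R2 level was known when the members were chosen, and R2 is the divisor of this ratio. Their counts and places among all genes for this step were therefore partly fixed in advance, and nothing is read from them.

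Primary and later genes did not overlap in this step. The log2 ratios of the 4 primary genes lay between -4.36 and -4.04 with a median of -4.34, and those of the 6 later genes between -3.56 and -2.67 with a median of -3.24. As folds of the deposited values, the primary genes were 16.7 to 22.8 times lower in R3 and the later genes 7.10 to 13.2 times lower. The members closest to each other across the classes were Prtn3, 16.7-fold lower with a counting interval of 15.9 to 17.6, and Fcnb, 13.2-fold lower with an interval of 11.7 to 15.0. Only 9 of the 9942 genes were at or below the ratio of Prtn3, and 4 of these were the primary genes. The smallest differences were those of the specific granule genes Ngp, 7.33-fold lower, and Ltf, 7.10-fold lower. The classes stayed apart with median scaling, at -3.16 or below against -2.67 or above, and with globins removed, at -3.27 or below against -2.80 or above.

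**Figure D2:**
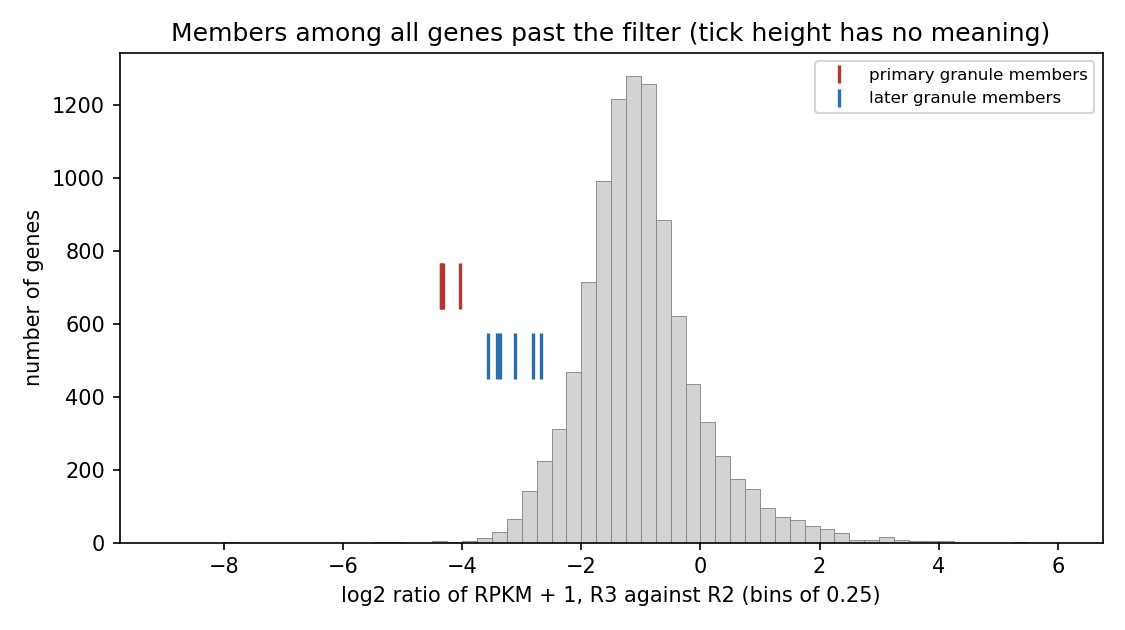
Number of genes (vertical axis) by log2 ratio of RPKM + 1 for R3 against R2 in bins of 0.25, for the 9942 genes past the filter, with ticks at the members. The primary granule members stand at -4.04 or below and the later members between -3.56 and -2.67, all left of the bulk of genes around -1.09.

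Within a library the ratio between members does not depend on how that library is scaled. Of the summed RPKM of the 10 members, the primary genes made up 61.0% (R2), 44.7% (R3), 50.9% (R4) and 59.5% (R5). The primary share was thus lowest in R3, where it fell below that of the later genes only through S100a8 and S100a9: without these, it was 88.0% (R2), 76.6% (R3), 81.2% (R4) and 86.2% (R5). Mpo was 2.31 times S100a8 (R2), 1.21 times (R3), 1.77 times (R4) and 2.34 times (R5). Mpo was 37.1 (R2), 12.7 (R3), 16.6 (R4) and 30.6 (R5) times Ltf. Some ratios inside a class moved less, as for the calprotectin subunits: S100a9 was 1.21 times S100a8 (R2), 1.26 times (R3), 1.61 times (R4) and 1.33 times (R5). Ela2 was 0.661 times Prtn3 (R2), 0.524 times (R3), 0.750 times (R4) and 0.590 times (R5). Others moved as much, since Fcnb was 1.93 (R2), 1.03 (R3), 0.775 (R4) and 1.39 (R5) times Ltf. Of the summed RPKM of all genes the members together held 1.54% (R2), 0.0787% (R3), 0.0334% (R4) and 0.0538% (R5). With globins left out of that sum the shares were 1.63% (R2), 0.194% (R3), 0.170% (R4) and 0.297% (R5).

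**Figure D3:**
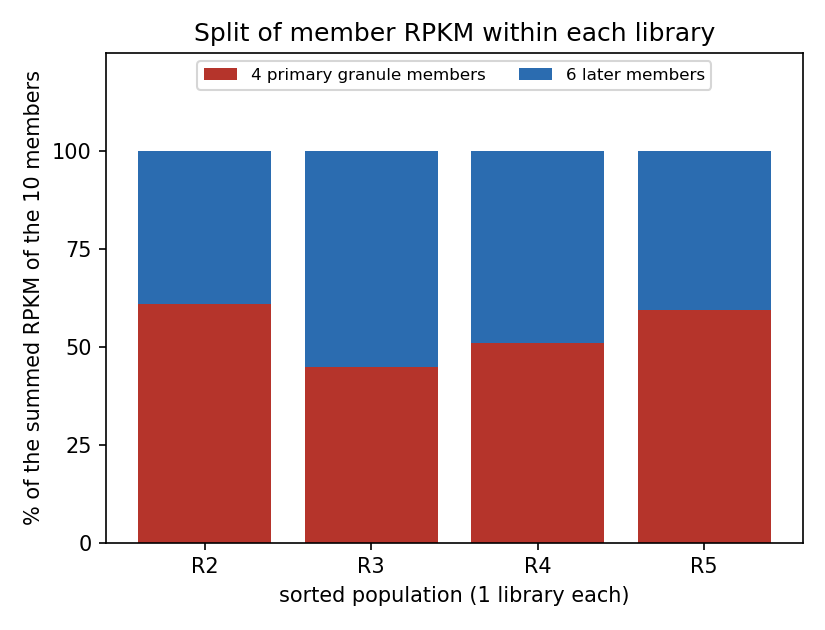
Share (%) of the summed RPKM of the 10 members held by the 4 primary granule genes and by the 6 later genes in each library. The primary share is 61.0% (R2), 44.7% (R3), 50.9% (R4) and 59.5% (R5).

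R4 against R3 compares late with basophilic erythroblasts. With the deposited scaling all 10 members were lower in R4. On the scale of log2(RPKM + 1), S100a8, Camp and Fcnb were at least 2-fold lower, beside 32.1% of all genes, a share close to that of the members. Ltf was 2.10-fold lower as a ratio of RPKM but at -0.90 on that log2 scale, and with a pseudocount of 0.1 RPKM it made the count 4. The primary genes had log2 ratios from -0.88 to -0.23 and the later genes from -1.22 to -0.82, and the ranges met at Prtn3, with -0.88. The median of all genes was -0.77, so all 6 later genes and Prtn3 lay below that level and the other 3 primary genes above it. The direction turned with the scaling. With median scaling the 4 primary genes lay between 0.19 and 0.73 and the later genes between -0.34 and 0.21, and no member passed 2-fold, beside 0.382% of genes lower and 4.26% higher. With globins removed 0 members were at least 2-fold lower, beside 2.83%.

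R5 against R4 compares the most mature population with the one before it. All 10 members were higher in R5, with log2 ratios from 0.34 for Ltf to 1.29 for Mpo, and this direction was the same with median scaling (0.05 to 0.93) and with globins removed (0.20 to 1.10). On the scale of log2(RPKM + 1), Mpo, Prtn3 and Fcnb were at least 2-fold higher, beside 3.96% of all genes, and 0 were at least 2-fold lower, beside 0.604%. Ctsg was 2.13-fold higher as a ratio of RPKM but at 0.97 on that log2 scale, and at 1.08 with a pseudocount of 0.1 RPKM. With median scaling 0 members passed 2-fold, beside 1.75% of genes, and with globins removed 2 did, beside 2.98%. As ratios of RPKM, Mpo was 2.47-fold higher, with 59.1 RPKM in R4 and 146 in R5, while Ltf was 1.34-fold higher. The classes overlapped, since the primary genes ran from 0.91 to 1.29 and the later genes from 0.34 to 1.02, with Fcnb at the top of the later genes.

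R5 against R3 was a comparison added after the data were seen, and the classes did not overlap in it. It shares the single R3 library with R3 against R2, so the 2 separations are not independent. As deposited the 4 primary genes were higher in R5, with log2 ratios from 0.39 to 0.74, and the 6 later genes lower, from -0.55 to -0.19. As ratios of RPKM, Ctsg was 1.77-fold higher in R5 and Ltf 1.57-fold lower. The opposite signs depended on the scaling, while scaling cannot move the gap except through the pseudocount. With median scaling the primary genes lay between 1.09 and 1.40 and the later genes between 0.06 and 0.46. With globins removed they lay between 0.86 and 1.19 and between -0.15 and 0.23. As deposited no member passed 2-fold in either direction, beside 13.1% of genes lower and 0.664% higher. With median scaling the 4 primary genes were at least 2-fold higher, beside 2.94% of genes.

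Over the whole course, R5 against R2, the classes overlapped. All 10 members were at least 2-fold lower in R5, beside 76.9% of all genes in the deposited values. Under median scaling the background was 13.7%, and under globin removal 29.8%. This contrast was known when the members were chosen, and nothing is read from the count. Primary genes were 12.8 to 14.3 times lower and later genes 9.04 to 15.4 times lower, with Ngp and Fcnb at the ends. R5 against R2 and R3 against R2 share the R2 library, so their values are set side by side only: Mpo stood at 4.84% of its R2 level in R3 and 7.42% in R5, and S100a8 at 9.22% and 7.34%.

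**Figure D4:**
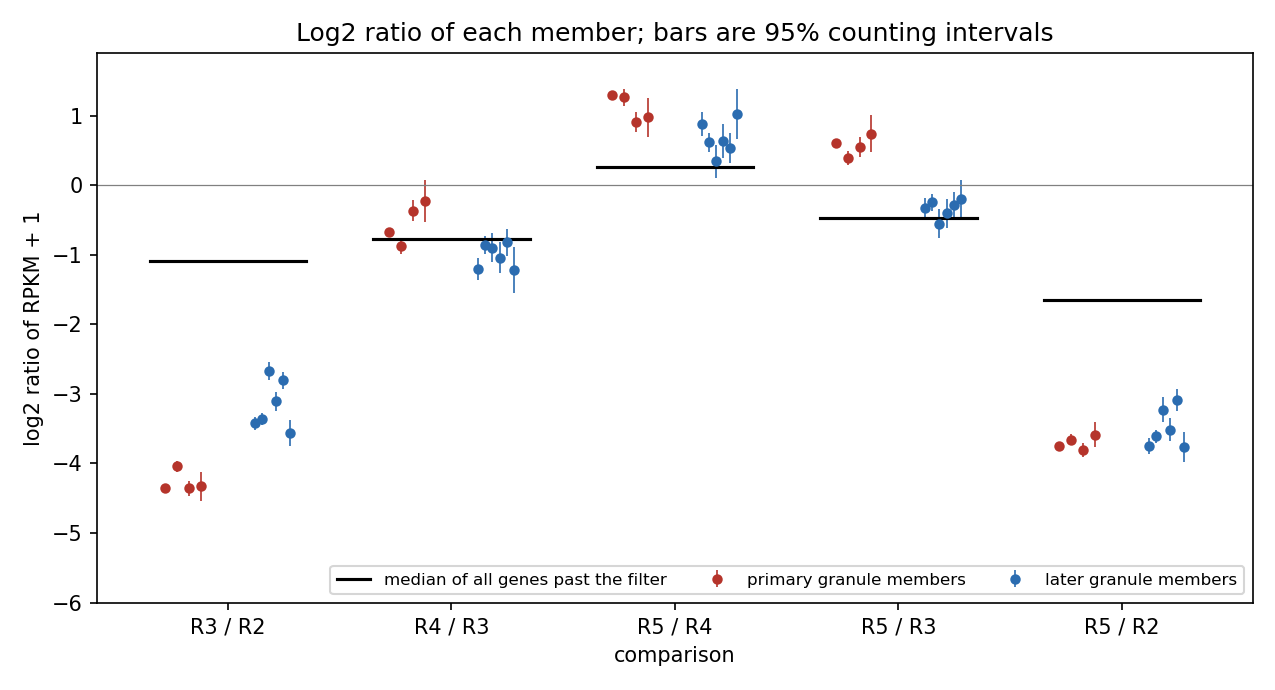
Log2 ratio of RPKM + 1 (vertical axis) of each member in 5 comparisons, primary granule genes in red and later genes in blue, with 95% counting intervals; black lines are the median of all genes past the filter. The classes are apart in R3 against R2 and in R5 against R3, and overlap in R4 against R3, R5 against R4 and R5 against R2.

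Other genes of the granule programme were lower in R3 too, beside the 55.1% of all genes that were at least 2-fold lower. On the scale of log2(RPKM + 1), the medians of their lists lay closer together than those of the primary and later members. The added 1 RPKM shrinks the ratios of low genes more, so the size of this gap depends on the scale. Nkg7, for example, was at 24.8 RPKM in R2 and 1.22 in R3, with a log2 ratio of -3.54 on that scale. Of 13 other genes of primary granules and protease processing, 11 passed the filter and all 11 were at least 2-fold lower in R3, with a median log2 ratio of -3.18. With median scaling the count was again 11, beside 18.0% of all genes. Lyz2, which encodes lysozyme, was at 212 RPKM (R2), 28.3 (R3), 18.0 (R4) and 20.7 (R5). Srgn, the serglycin gene whose proteoglycan packs granule proteases, was at 116 RPKM (R2), 9.73 (R3), 5.23 (R4) and 10.7 (R5). In the same list Cd63, a granule membrane tetraspanin, was at 49.2 RPKM in R2 and 3.89 in R3, and Gusb, a lysosomal glucuronidase, at 49.9 and 6.29.

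Of 20 other genes of later granules and neutrophil cytosol, 16 passed the filter. Of these, 14 were at least 2-fold lower in R3, beside 55.1% of all genes, with a median of -2.94. With median scaling 13 were, beside 18.0%. Stfa1, a stefin that inhibits cysteine proteases, was at 848 RPKM (R2), 48.9 (R3), 30.7 (R4) and 60.5 (R5), and its R3 log2 ratio of -4.09 lay within the range of the primary members. BC100530, a stefin-like gene, was at 524 RPKM (R2), 50.0 (R3), 21.8 (R4) and 35.4 (R5). Stefin genes lie in a cluster of similar copies, so the split of reads between them is uncertain. Hp, the haptoglobin gene, was at 131 RPKM in R2 and 9.54 in R3, and Lcn2, lipocalin 2, at 105 and 12.9. Levels in R2 differed widely within the list: Pglyrp1, a peptidoglycan binding protein gene, was at 101 RPKM, Anxa1 at 33.6, Slpi at 11.1 and Cd177 at 5.42, while Mmp9 was at 1.62, Mmp8 at 0.77 and Retnlg at 0.68. For R5 against R3 the medians of these lists were 0.04 and -0.06, against 0.58 for the primary and -0.30 for the later members.

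All 8 genes of the NADPH oxidase and beta2 integrin list were at least 2-fold lower in R3, with a median of -2.60. This stands beside 55.1% of all genes. With median scaling the count was again 8, beside 18.0% of genes. Cyba, an oxidase subunit, was at 150 RPKM in R2 and 18.7 in R3, Ncf1 at 48.1 and 4.39, and the GTPase gene Rac2 at 111 and 24.4. Ncf4 was at 37.1 RPKM (R2), 7.08 (R3), 13.5 (R4) and 13.0 (R5), so that R4 was higher than R3 in the deposited values, unlike every member. All 12 regulators of granulocyte development were at least 2-fold lower, with a median of -2.97, and 11 were with median scaling, beside the same shares. Cebpe, the C/EBP factor required for specific granule genes, was at 51.6 RPKM (R2), 2.84 (R3), 2.38 (R4) and 3.60 (R5), and its R3 log2 ratio of -3.77 was the lowest of the regulators. Cebpb was at 71.6 RPKM in R2 and 8.13 in R3, Csf2ra, a GM-CSF receptor subunit, at 47.4 and 4.11, and Sfpi1, which encodes PU.1, at 84.7 and 8.92.

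Receptors of the neutrophil surface were each lower in R2 than the lowest member, Ltf. Of 11 measured, 8 passed the filter and all 8 were at least 2-fold lower in R3, beside 55.1% of all genes. With median scaling 5 of them were, beside 18.0%. Ly6c2 was at 52.9 RPKM in R2 and 2.60 in R3, Fcgr3 at 37.9 and 3.49, and the leukotriene receptor gene Ltb4r1 at 25.9 and 2.25. Fpr1, a receptor of mature neutrophils, was at 0.46 RPKM in R2, and the chemokine receptor gene Il8rb (Cxcr2) at 2.15.

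Markers of other cell types moved in different ways beside the members, and their part in the member values was not tested. Counts at least 2-fold lower in R3 stand beside 55.1% of all genes in the deposited values and 18.0% with median scaling. The mast cell and basophil list summed to 115 RPKM (R2), 8.11 (R3), 5.14 (R4) and 11.1 (R5), with 6 of 8 genes past the filter at least 2-fold lower in R3 and Tpsab1 at 0 in every library. Its highest genes were Hdc, histidine decarboxylase, at 45.4 RPKM in R2 and 2.25 in R3, Mcpt8 at 29.9 and 2.42, Gata2 at 19.0 and 1.61, and Prss34 at 11.5 and 0.98. The eosinophil list summed to 195 RPKM (R2), 24.6 (R3), 14.3 (R4) and 16.3 (R5), and all 6 genes past the filter were at least 2-fold lower in R3. Prg2, the eosinophil major basic protein, was at 138 RPKM in R2 and 18.3 in R3, Epx at 16.6 and 1.82, Ear1 at 13.3 and 1.81, and Ear2 at 12.0 and 1.32, while Ccr3 was listed at 0 in R2 and R4. Lymphoid markers summed to 38.8 RPKM (R2), 6.24 (R3), 3.82 (R4) and 5.77 (R5), with 5 of 7 at least 2-fold lower in R3 and Cd3e at 0 in every library, and the count was again 5 with median scaling. The mast cell count was 5 and the eosinophil count 6 with that scaling. Among the B lineage genes of the lymphoid list, Cd79b was at 10.7 RPKM in R2, Vpreb1 at 8.01, Vpreb3 at 6.76 and Cd79a at 6.35. Lck, a T cell kinase gene, was instead highest in R3, at 1.77 RPKM (R2), 3.28 (R3), 1.80 (R4) and 2.54 (R5).

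As sums, the monocyte and macrophage, megakaryocyte and hepatocyte lists showed a smaller R2 excess than the members or none. The monocyte and macrophage list summed to 123 RPKM (R2), 72.9 (R3), 30.6 (R4) and 70.6 (R5), with 4 of 14 genes at least 2-fold lower in R3 and Vsig4 at 0 in every library. C1qc, a complement gene of macrophages, was at 16.9 RPKM (R2), 14.7 (R3), 5.66 (R4) and 14.6 (R5). C1qb was at 15.8 RPKM in R2 and 12.4 in R3 and Cd5l at 15.0 and 11.9, whereas Csf1r, the M-CSF receptor gene, was at 28.0 and 6.46. The others of the 4 were Cd68, at 13.1 and 4.18, Ccr2, at 3.51 and 0.37, and Cd14, at 2.23 and 0.30. Ccr2 and Cd14 were low throughout, but their RPKM ratios lay within the range of the later members. Megakaryocyte markers summed to 47.8 RPKM (R2), 47.0 (R3), 24.6 (R4) and 73.7 (R5), and Pf4 was at 10.8 RPKM (R2) and 31.6 (R5). Hepatocyte markers summed to 223 RPKM (R2), 542 (R3), 185 (R4) and 395 (R5), with 7 of 10 at least 2-fold higher in R3, beside 3.81% of all genes. Alb, the albumin gene, was at 64.8 RPKM in R2 and 161 in R3. In the deposited values their sums were lowest in R4 and higher in R5, as for the members and for every other list except the erythroid markers. From R4 to R5 the level was at least 2-fold higher for 5 of 9 megakaryocyte, 4 of 10 hepatocyte and 4 of 14 macrophage markers, beside 3.96% of all genes. With median scaling these counts were 5, 1 and 2, beside 1.75%.

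**Figure D5:**
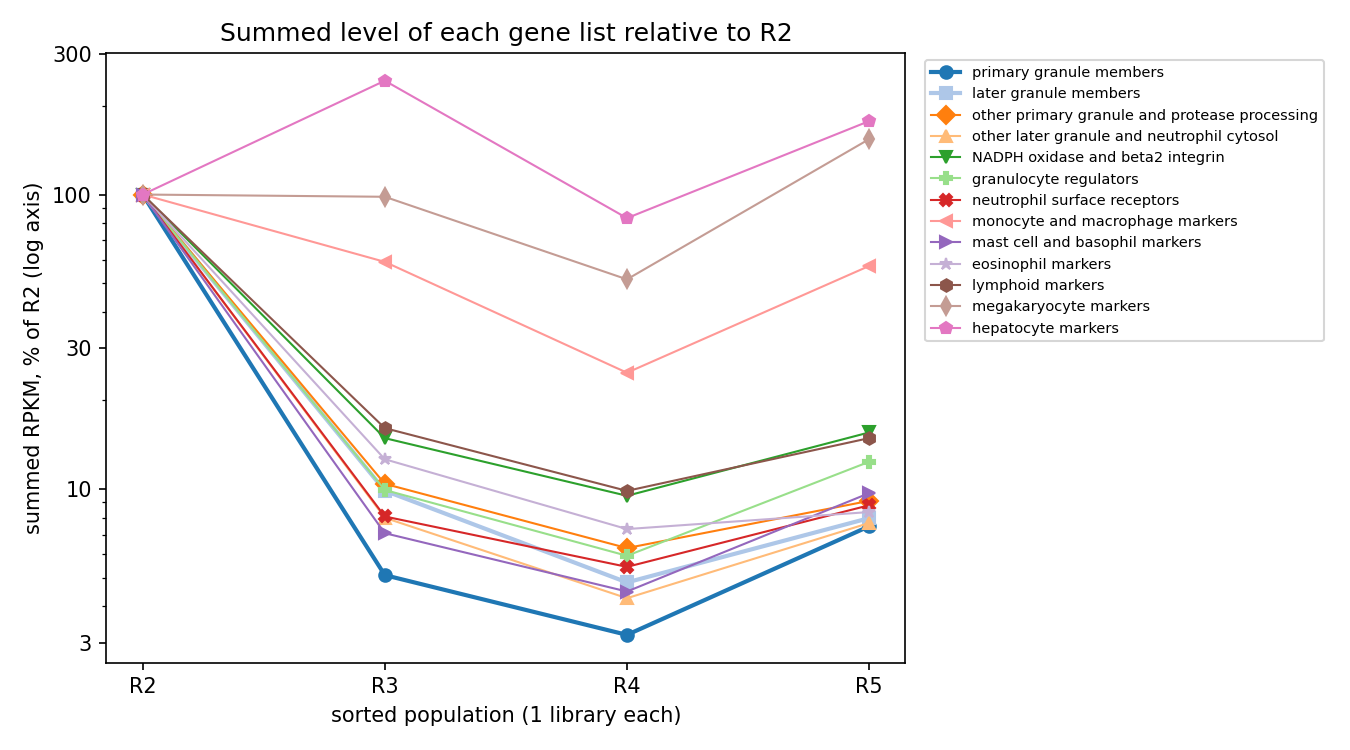
Summed RPKM of each gene list as a percentage of its R2 sum (log axis) in the 4 populations, 1 library each. In R3 the primary granule members stand at 5.10% of their R2 sum, the later members at 9.86% and hepatocyte markers at 244%.

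The genes with the profile most like that of the members were sought among 5367 other genes with at least 10 RPKM in R2. Likeness was the distance between the 3 log2 ratios to R2 of a gene and the median of these ratios over the members, across 4 libraries. The 10 closest were BC100530, Ms4a3, Prssl1, Actg1, Hp, Arhgdib, Rab44, Srgn, Plac8 and Hdc, and 6 of them were on the lists described above. Ms4a3, a membrane protein gene of granulocyte precursors, was at 39.7 RPKM (R2), 2.05 (R3), 1.01 (R4) and 2.54 (R5), with a distance of 0.37. Prssl1 (Prss57), a granule serine protease gene, was at 24.5 RPKM (R2), 1.35 (R3), 0.32 (R4) and 1.42 (R5). Actg1 rested on few reads, since its values were whole multiples of reads counted over 5 bases, with 96 reads in R2 and 5 in R4. In all, 132 of the 5367 genes, or 2.46%, were as close as the farthest member, Ltf, whose distance was 1.38. The order depends on the pseudocount: with 0.1 RPKM in place of 1 RPKM only Rab44 stayed among the 10 closest, which then also held Pstpip1, Alas1 and Ltb4r1.

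Members lie close to each other in the genome in places, which the list did not use. In RefSeq, Prtn3 and Elane are neighbouring protein-coding genes on chromosome 10, S100a8 and S100a9 are neighbours on chromosome 3, and Camp, Ngp and Ltf are all on chromosome 9. Of 16 flanking protein-coding genes that are not members, 15 were found in the tables and 9 had at least 1 RPKM in R2. The others did not reach 1 RPKM in any library. Of these 9, 8 were at least 2-fold lower in R3, beside 55.1% of all genes past the filter. Their log2 ratios ran from -3.18 for Mcpt8 to -1.16 for Col5a1, beside a median of -1.09 for all genes. The count was made with the deposited scaling only. With median scaling the share of all genes was 18.0%, and the neighbours were not counted on that scale. These neighbours were looked up after the member values were seen. Cfd, next to Elane, had a listed value of 0 for R2 and of 0.28 RPKM for R5, and Lpo, a peroxidase gene next to Mpo, was at 0.58 RPKM in R2. Mcpt8, next to Ctsg, had a log2 ratio of -3.18 for R3 against R2, whereas Ccrl2, next to Ltf, was at 1.82 RPKM in R2 and 8.01 in R3, a ratio of 1.68.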

How the data were processed

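The authors deposited 1 table per population with RPKM to 2 decimals for 19564 gene symbols, per the file headers. The genome build was mm9 per the submitters' processing notes. The aligner, the counting program and the gene lengths were not given in the sources used here. Each population has 1 library, so there is no test and no p-value.

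Log2 ratios of RPKM + 1 were taken for 9942 genes that reached 1 RPKM in 1 library or more, and 2-fold was the limit for a call. Alternatives were pseudocounts of 0.1 and 5 RPKM, no filter and a filter of 5 RPKM, scaling by the median ratio over 2745 genes with at least 5 RPKM in every library, removal of globin genes, and other splits of the members. Depth came from the unit of which 23 of 24 values of 6 genes with few countable bases were whole multiples, within 0.02 of a whole number, taking that unit as 1 read over 1 base, an assumption that scales every read estimate. Values of 0 were among the 23, and the unit was set from these same genes. Read estimates used exonic lengths of the GRCm38 annotation, as no mm9 annotation was used here.

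Of 150 list entries 147 were matched, 2 through an older symbol and 1 through a RefSeq synonym. The members and lists were chosen with earlier results of these data known. Named were all members, the 4 genes of each list with the highest R2 value, list genes at least 2-fold higher than in R2, of which examples are given, and the 10 closest profiles. Other genes were chosen after their values were seen. Calls were tested on simulated data with counting error only, in which most genes were unchanged. The simulation held no shift across genes like that between R2 and R3, so it does not bear on calls under such a shift. Python 3.11.15, numpy 2.4.6 and pandas 2.3.3 were used.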

Additional observations from a re-analysis of the deposited data

How the results depend on the processing

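Each population has 1 library, so the ranges below cover settings and not biological spread, and reads of PCR copies are not independent molecules. No paired analysis was possible because the labels number no replicates and each population has 1 sample. The count of members at least 2-fold lower stayed at 10 for R3 against R2 and R5 against R2, and at 0 for R5 against R4 and R5 against R3, under both pseudocounts, both filters and both scalings. For R4 against R3 it went from 3 to 4 with a pseudocount of 0.1 RPKM, to 1 with 5 RPKM and to 0 with median scaling or globins removed.

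The median log2 ratio of primary minus later members was -1.11 for R3 against R2, -1.22 with Fcnb counted as primary and -1.38 without S100a8 and S100a9. For R4 against R3 it was 0.45, 0.29 with a pseudocount of 5 RPKM and 0.22 with Fcnb as primary. For R5 against R2 it was -0.14, -0.40 with a pseudocount of 5 RPKM, -0.23 with Fcnb as primary and -0.33 without the S100 genes. For R5 against R4 (0.49) and R5 against R3 (0.88) it moved by less than its counting interval. Scaling of the libraries can move these differences only through the pseudocount. The primary share of the member sum was 62.7% (R2), 46.5% (R3), 52.1% (R4) and 60.9% (R5) with Fcnb as primary, and 88.0%, 76.6%, 81.2% and 86.2% without the S100 genes, so R3 had the lowest share in each case.

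With median scaling the sign turned for R4 against R3 in Mpo (0.39), Prtn3 (0.19), Ela2 (0.69), Ctsg (0.73), S100a9 (0.21), Ltf (0.012) and Ngp (0.19), and with globins removed in Ela2 (0.29) and Ctsg (0.36). For R5 against R3 it turned with median scaling in S100a8 (0.39), S100a9 (0.46), Ltf (0.063), Camp (0.28), Ngp (0.39) and Fcnb (0.44), and with globins removed in S100a8 (0.15), S100a9 (0.22), Camp (0.052), Ngp (0.17) and Fcnb (0.23). Of the 10 closest profiles, 1 stayed with a pseudocount of 0.1 RPKM; the cause was not tested.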
